A study of Mus musculus with 7 samples.

Results

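Homeostatic-type microglia were taken from a single-cell RNA-seq series on leukocytes of mouse GL261 gliomas and were chosen by their own transcripts. A barcode was kept when it had at least 300 genes and at most 10% of its unique molecular identifiers (UMIs, the counted RNA molecules) from mitochondrial genes. A kept barcode was a member when its UMIs of P2ry12, Tmem119, Gpr34, Fcrls and Sall1 summed to at least 5 and it had none of Cxcl13, C4b, the Cd3 genes and Mki67. Of 41033 deposited barcodes 40416 were kept and 4608 were members, 11.4% of the kept barcodes. The levels of these 11 genes chose the members and are given as a description, with no test.

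The cells were CD45+ DRAQ7- sorted leukocytes from the tumour-bearing left brain hemisphere of female wild-type mice aged 8 to 9 weeks, harvested at day 21 after implantation. Mice of the combination group, called PT2385+ICB, received PT2385, an inhibitor of the transcription factor subunit HIF-2α (gene Epas1), given at 10 mg/kg from day 7, together with immune checkpoint blockade (ICB) by antibodies to PD-1 and TIM-3. The PT2385 group received the inhibitor without the antibodies, the ICB group received both antibodies without the inhibitor, and the last group was labelled untreated. The protocols describe a vehicle and isotype control antibodies without saying which of them the untreated mice received. All mice carried the same tumour line, which is a syngeneic model and not a spontaneous glioma. Each library was a pool of cells of 2 mice, with 2 pools of PT2385+ICB, 2 of PT2385, 2 of ICB and 1 untreated pool, so the p-values measure the spread between pools.

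Microglia are the resident macrophages of the brain parenchyma, seeded before birth and maintained locally. In the undisturbed brain they hold a set of transcripts known as homeostatic, which depends on TGF-beta signalling and includes the purinergic receptor gene P2ry12, Tmem119 and the transcription factor gene Sall1. Near tumours, interferon and phagocytic cargo are known to lower this set and to raise antigen presentation, lipid-handling and chemokine genes, and monocytes that enter the tumour become macrophages that share many of those genes.

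The label was checked against 41 homeostatic genes that the rule did not use. Their summed level, in CPM (UMIs of the pooled cells of a library scaled to an equal total after TMM normalization), was 62359.5 and 71041 CPM in PT2385+ICB, 49405 and 54871 in PT2385, 57944 and 54972 in ICB and 47183 in untreated pools. It was 8438 to 13054 CPM over the 7 libraries in kept barcodes without any marker UMI, so members lay above them in every library. In the reactive microglia, which the rule set aside for Cxcl13 or C4b, it was 38532 to 55335 CPM. That was below the members of the same library in every library, but the ranges overlapped. Siglech, a microglial lectin also made by plasmacytoid dendritic cells, was at 385 to 1113 CPM in members and 7.60 to 22.4 CPM in marker-free barcodes. Cx3cr1, the fractalkine receptor, was at 1159 to 2079.8 CPM in members and 60.3 to 135 CPM in marker-free barcodes. Members had a median of 8118.5 UMIs, 3077.5 genes and 31 marker UMIs, and 57.5% of them had a UMI of all 5 markers.

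Of the rule's own markers, P2ry12 was at 1217 and 1473 CPM in PT2385+ICB, 749 and 806 in PT2385, 1047 and 879 in ICB and 662 in untreated pools. Tmem119, a surface protein of microglia, was at 594 and 664 CPM in PT2385+ICB, 428 and 488 in PT2385, 484 and 471 in ICB and 431 in untreated pools. Sall1 was at 199.6 and 221 CPM in PT2385+ICB, 140.1 and 156 in PT2385, 149 and 130.5 in ICB and 91.6 in untreated pools. Gpr34, a lysophospholipid receptor, was at 664 and 852 CPM in PT2385+ICB, 433 and 549.7 in PT2385, 599.8 and 469 in ICB and 422 in untreated pools. In all members P2ry12, Sall1 and Gpr34 were highest in the PT2385+ICB pools and lowest in the untreated pool. Tmem119 was highest in the PT2385+ICB pools and lowest in PT2385 pool 1. Levels in a subset of the members, where the order differed, are given below. Fcrls, an Fc receptor-like scavenger protein, was at 696 and 888 CPM in PT2385+ICB, 353 and 408 in PT2385, 729 and 571 in ICB and 448 in untreated pools; here ICB pool 1 lay above PT2385+ICB pool 1, and both PT2385 pools lay below the untreated pool. The median marker sum of a member was 31 and 37 UMIs in the PT2385+ICB pools, 15 and 24 in the PT2385 pools, 30 and 26.5 in the ICB pools and 17 in the untreated pool. At the threshold, the 366 members with a marker sum of exactly 5 had 24951 to 27917 CPM of the 41 homeostatic genes, and the 551 barcodes with a sum of 4 that met every other condition had 20647 to 25775 CPM. Both sets lay well below the range of all members, and their summed level of 19 monocyte and macrophage markers was 8755 to 19496 CPM inside the threshold and 9621 to 20358 CPM outside it.

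Members differed in how much monocyte RNA they carried, and this content moved with the groups. A UMI of at least 1 of Ccr2, Ly6c2, Plac8 and Chil3, 4 genes of inflammatory monocytes that homeostatic microglia lack, was present in 1608 of the 4608 members. These were 27.9% and 21.7% of the members in the PT2385+ICB pools, 46.0% and 39.8% in the PT2385 pools, 36.2% and 44.4% in the ICB pools and 65.7% in the untreated pool. For thinning to 4000 UMIs, barcodes with fewer UMIs were left out and the member rule was applied again to the thinned counts. The thinned members are thus a smaller set of cells, 290 in place of 475 in the untreated pool. Among them the shares were 13.7% and 12.9% in the PT2385+ICB pools, 32.9% and 32.4% in the PT2385 pools, 19.2% and 23.7% in the ICB pools and 44.5% in the untreated pool, and the PT2385+ICB pools were again lowest and the untreated pool highest. Chil3, a secreted chitinase-like protein of monocytes, had a UMI in 0.868% and 1.03% of members in the PT2385+ICB pools, 2.14% and 4.26% in the PT2385 pools, 2.28% and 3.86% in the ICB pools and 5.26% in the untreated pool. In Cd3-positive, marker-free T cells, which should lack Chil3, the shares were 0% and 0.316% in the PT2385+ICB pools, 0.225% and 0.787% in the PT2385 pools, 0.262% and 1.18% in the ICB pools and 0.580% in the untreated pool, at median depths of 6500.5 to 7628 UMIs against 7557 to 9345 UMIs in members. For Chil3, members were above the T cells of their own library in all 7 libraries. For Ly6c2 the T cells were above the members in every library but the untreated pool. In ICB pool 1, for example, Ly6c2 had a UMI in 56.2% of T cells and 18.8% of members. The source of the Ly6c2 UMIs was not tested.

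Summed over 19 monocyte and macrophage markers, the level in members was 2864 and 2065 CPM in PT2385+ICB, 7249 and 8426 in PT2385, 4681 and 10634 in ICB and 12861 in untreated pools. In the 3000 members without a UMI of the 4 monocyte genes, it was 625 and 433 CPM in PT2385+ICB, 871 and 1029 in PT2385, 1724 and 3812 in ICB and 2912 in untreated pools. These 4 genes are among the 19 markers, so part of the drop was fixed by the selection. The groups kept much of their order in these cells, with the PT2385+ICB pools lowest. In the same cells the untreated pool lay above the PT2385+ICB mean for Gpr34 (1054 and 909 CPM), Tmem119 (806 and 738) and Fcrls (1049 and 950). It lay below that mean for P2ry12 (1535 and 1606 CPM) and Sall1 (207 and 249). Leaving out members with a monocyte-gene UMI also removes deeper cells. Their median depths were 9053 to 15061 UMIs, against 5929 to 7875 UMIs in members without one. Gene results below are given for all members unless another set is named, and the members without a monocyte-gene UMI, and those of them with at least 10 marker UMIs, are the other sets. The part of monocyte-derived RNA, doublets or hybrid cells in the results was not tested.

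**Figure D1:**
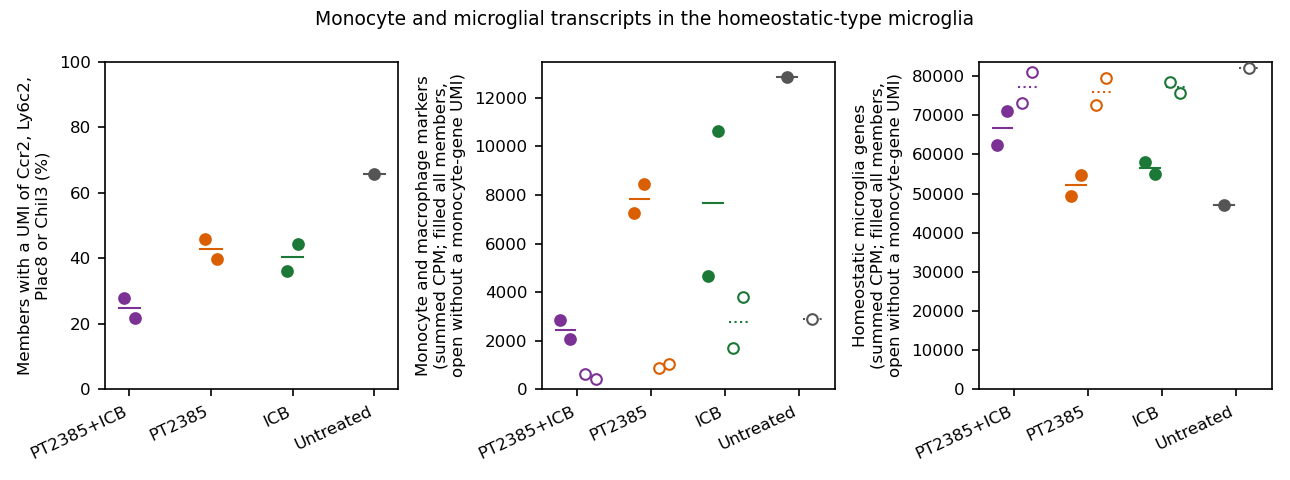
Monocyte and microglial transcripts of the members by library; a point is 1 library and a line a group mean. The left panel gives the percentage of members with a UMI of Ccr2, Ly6c2, Plac8 or Chil3, lowest in the PT2385+ICB pools (27.9% and 21.7%) and highest in the untreated pool (65.7%). The other panels give summed CPM of 19 monocyte and macrophage markers and of 41 homeostatic genes in all members (filled) and in members without a monocyte-gene UMI (open). Ccr2, Ly6c2, Plac8 and Chil3 are among the 19 markers and are absent from the open points by selection.

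The 7 libraries held 59839154 to 81960504 UMIs, and the pooled members of a library 1862216 to 12879763 UMIs, fewest in PT2385 pool 1 with 187 members and most in PT2385+ICB pool 2 with 1452. A barcode sequence was found in more than 1 library for 174 of 40242 distinct kept barcodes, and for 2 of the members. Choroid plexus transcripts also differed between libraries, with Ttr, which encodes the transport protein transthyretin, at 2843 and 2834 CPM in PT2385+ICB, 4.30 and 0.570 in PT2385, 367 and 501 in ICB and 0.175 in untreated pools, without TMM normalization. In T cells, on the same scale, Ttr was at 1265 and 4867 CPM in the PT2385+ICB pools, 6.02 and 3.41 CPM in the PT2385 pools, 485 and 779 CPM in the ICB pools and 0 CPM in the untreated pool. The ICB-treated pools were thus highest in members and in T cells, which should lack Ttr. Most of the Ttr UMIs of the PT2385+ICB members lay in a few cells, with 19986 of 21656 in 19 of 806 members of pool 1 and 33335 of 36495 in 44 of 1452 members of pool 2, and the source of these transcripts was not tested.

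Homeostatic-type microglia were a larger share of the sorted cells in every library that received ICB than in every library that did not. They were 16.6% (exact binomial 95% interval 15.6% to 17.7%) and 26.8% (25.6% to 28.0%) of the kept barcodes in the PT2385+ICB pools, 3.60% (3.11% to 4.14%) and 6.20% (5.57% to 6.88%) in the PT2385 pools, 13.4% (12.5% to 14.3%) and 9.82% (9.06% to 10.6%) in the ICB pools and 5.97% (5.46% to 6.51%) in the untreated pool. The intervals cover counting error only, and pools of 1 group differed by more than that. The 4 ICB-treated pools averaged 16.7% and the 3 pools without ICB 5.26%, a difference of 11.4 percentage points. The 2-sided exact permutation p was 0.0571, or 0.114 after Benjamini-Hochberg adjustment over the 4 comparisons of 4 pools against 3 made on this share and on the reactive share described below, where 35 splits allow no p below 0.0286. On the log2 scale the same difference was 1.61 with the smallest exact p, 0.0286 before adjustment. A share of sorted cells rises when other leukocytes fall, so these values do not count microglia per brain.

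Within the ICB-treated mice, the share was 21.7% ± 7.18 in PT2385+ICB pools and 11.6% ± 2.54 in ICB pools (SD, n = 2 each), a difference of 10.1 percentage points in which both PT2385+ICB pools were higher. Against PT2385 pools, at 4.90% ± 1.84 (SD, n = 2), the difference was 16.8 percentage points. Both comparisons gave an exact permutation p of 0.333, the smallest that 2 pools against 2 allow. Across all pools, those with PT2385 averaged 13.3% and those without it 9.73%, a difference of 3.57 percentage points (exact permutation p = 0.657, adjusted 0.657) that turned to -0.920 without PT2385+ICB pool 2. Of the 2 PT2385 pools 1 lay below the untreated pool and 1 above it, and both PT2385+ICB pools lay above both ICB pools; whether the effect of PT2385 on the share differs with ICB was not tested.

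**Figure D2:**
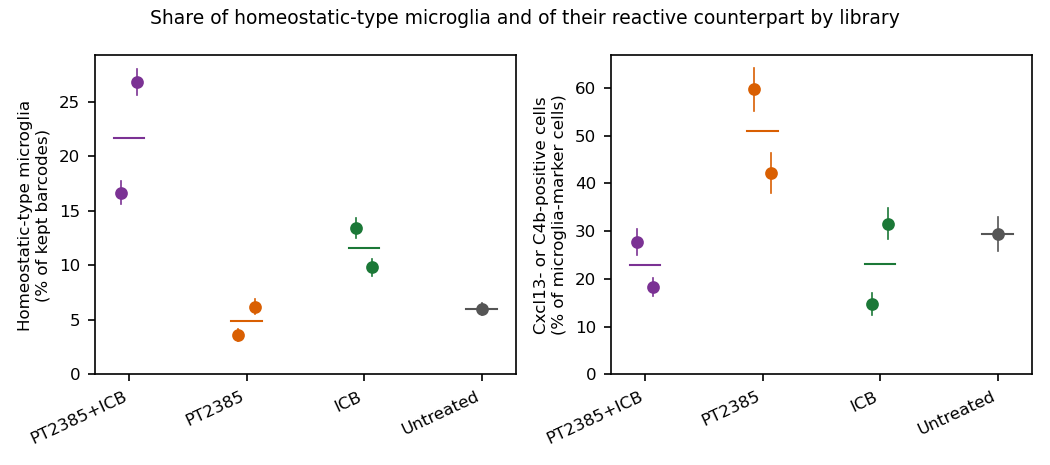
Left, homeostatic-type microglia as a percentage of kept barcodes; right, cells with Cxcl13 or C4b as a percentage of microglia-marker cells. A point is 1 library with its exact binomial 95% interval and a line a group mean; the 4 ICB-treated pools sit between 9.82% and 26.8% on the left, above the 3 others, and the PT2385 pools are highest on the right at 59.7% and 42.2%.

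The cells that the rule set aside for Cxcl13 or C4b, the 1747 reactive microglia, followed another order. Cxcl13 encodes a B-cell-attracting chemokine and C4b a complement component. Reactive cells made up 27.7% and 18.3% of microglia-marker cells (reactive cells and members) in the PT2385+ICB pools, 59.7% and 42.2% in the PT2385 pools, 14.7% and 31.6% in the ICB pools and 29.3% in the untreated pool. The PT2385 pools were the highest, and the other pools overlapped. The difference of ICB-treated pools from pools without ICB was -20.7 percentage points (-27.9 to -12.7 with 1 library left out). Permutation tests of this share count in the adjustment above but are not read as results, since the rule used these genes. PT2385-treated pools differed from the others by 11.8, a value that moved by over 1.5 times with 1 library left out, and PT2385+ICB pools differed from ICB pools by -0.137. After thinning to 4000 UMIs the reactive share was 15.5% and 10.0% in the PT2385+ICB pools, 46.8% and 26.2% in the PT2385 pools, 6.59% and 21.3% in the ICB pools and 15.9% in the untreated pool, and the PT2385 pools were again highest.

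For gene levels, UMIs were summed over the members of each library and fitted with edgeR's quasi-likelihood test, and a gene was called at a Benjamini-Hochberg adjusted p under 0.05 over all 13588 genes tested. Changes given with ± are log2 fold changes with their standard errors. Between PT2385+ICB and ICB pools 767 genes rose (5.64%) and 1540 fell (11.3%), 17.0% of those tested. Between PT2385+ICB and PT2385 pools 822 rose (6.05%) and 1447 fell (10.6%), 16.7% in all. Against the untreated pool, a single library assumed to vary like the others, 1629 rose (12.0%) and 2185 fell (16.1%) in PT2385+ICB pools, 28.1% in all. With PT2385, over all 7 libraries and with ICB as a term, 883 rose (6.50%) and 1312 fell (9.66%), 16.2% in all. With ICB, with PT2385 as a term, 983 rose (7.23%) and 1283 fell (9.44%), 16.7% in all. In members without a monocyte-gene UMI 11629 genes were tested. There 52 rose (0.447%) and 439 fell (3.78%) against ICB pools, 24 rose (0.206%) and 79 fell (0.679%) against PT2385 pools, and 43 rose (0.370%) and 199 fell (1.71%) against the untreated pool. With PT2385 57 rose (0.490%) and 406 fell (3.49%), and with ICB 14 rose (0.120%) and 5 fell (0.0430%). In members that also had at least 10 marker UMIs, the falls were 1.54% of 11200 genes against ICB pools, 0.482% against PT2385 pools, 0.491% against the untreated pool and 1.20% with PT2385. The subsets hold fewer cells and UMIs, so fewer genes can be called in them.

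The number of calls depended on single libraries. For PT2385+ICB against ICB it was 441 without PT2385+ICB pool 2, 1108 without PT2385+ICB pool 1 and 1468 without ICB pool 2. For PT2385+ICB against PT2385 it was 540 and 1270 without PT2385+ICB pools 2 and 1, and 742 and 735 without PT2385 pools 1 and 2. Against untreated it was 1853 without PT2385+ICB pool 2. For PT2385 it was 627 and 773 without PT2385+ICB pools 2 and 1 and 1129 and 1195 without ICB pools 1 and 2, and for ICB 661 and 922 without PT2385+ICB pools 2 and 1, 845 and 654 without PT2385 pools 1 and 2 and 1504 without ICB pool 1. Genes called under every setting tried numbered 72 for PT2385+ICB against ICB (3 rose, 69 fell), 42 for PT2385+ICB against PT2385 (8 rose, 34 fell), 42 against untreated (7 rose, 35 fell), 63 for PT2385 (4 rose, 59 fell) and 10 for ICB (8 rose, 2 fell).

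**Figure D3:**
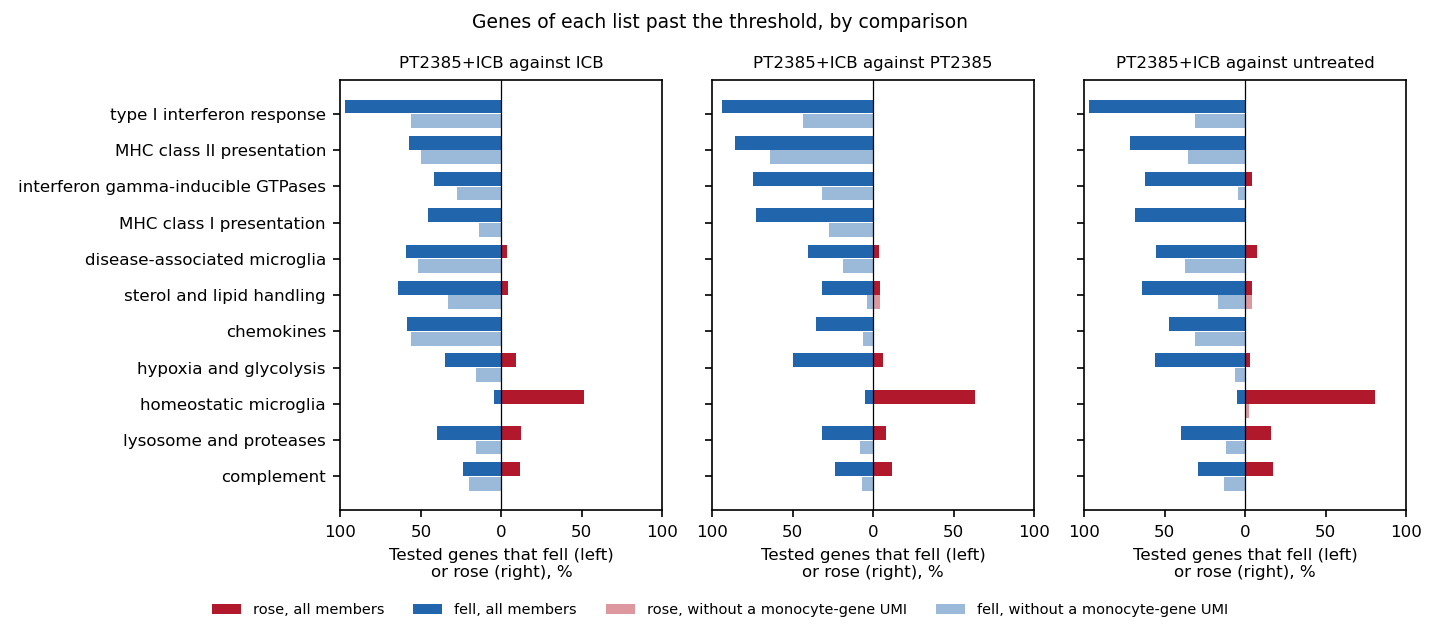
Percentage of the tested genes of 11 lists that fell (left of 0) or rose (right of 0) past the threshold in PT2385+ICB pools, in all members (dark) and in members without a monocyte-gene UMI (light). Interferon genes fell for 31 of 32 against ICB pools in all members and for 18 of 32 in the subset; homeostatic genes rose for 21 of 41 and 0 of 41.

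Type I interferon genes were lower in homeostatic-type microglia of PT2385+ICB pools than in those of every other group. Of the 34 genes listed 32 were tested, and 31 fell against ICB pools, with a median log2 fold change of -1.72 beside 0.05 over all genes tested. Against PT2385 pools 30 fell (median -1.55) and against the untreated pool 31 (median -2.40). In members without a monocyte-gene UMI 18 of 32 fell against ICB pools (median -1.22) and 14 against PT2385 pools (median -1.14), and with at least 10 marker UMIs besides, 11 and 9 of 31 (medians -0.95 and -0.94). No listed gene rose in any of these comparisons. The summed level of the list in members without a monocyte-gene UMI was 1044 and 1056 CPM in PT2385+ICB, 2148 and 2296 in PT2385, 2157 and 2472 in ICB and 2480.2 in untreated pools, so the PT2385+ICB pools were lowest and the other groups lay close together.

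The 4 promoters are shown because their genes had the smallest p of the eligible listed genes, between PT2385+ICB and ICB pools in members without a monocyte-gene UMI. Eligible genes had a window in the promoter table, and genes of a whole chromosome were left out of the choice. Ifitm3 encodes a membrane protein that restricts virus entry, Isg15 a ubiquitin-like modifier, Bst2 the virion tether tetherin and Irf7 a transcription factor of the interferon loop. Each window runs from 250 bases before to 30 bases after the gene's start (RefSeq, GRCm38.p6), 5′ to 3′ on the gene's strand, the minus strand for all 4. Capitals mark a pair of GAAA motifs 2 bases apart, the core of an interferon-stimulated response element, searched on both strands.

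Ifitm3: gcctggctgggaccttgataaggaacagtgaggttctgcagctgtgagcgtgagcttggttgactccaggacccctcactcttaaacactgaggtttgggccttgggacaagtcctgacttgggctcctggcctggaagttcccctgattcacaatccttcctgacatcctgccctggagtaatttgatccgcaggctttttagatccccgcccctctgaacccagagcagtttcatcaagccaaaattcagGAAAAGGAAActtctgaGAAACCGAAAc
Isg15: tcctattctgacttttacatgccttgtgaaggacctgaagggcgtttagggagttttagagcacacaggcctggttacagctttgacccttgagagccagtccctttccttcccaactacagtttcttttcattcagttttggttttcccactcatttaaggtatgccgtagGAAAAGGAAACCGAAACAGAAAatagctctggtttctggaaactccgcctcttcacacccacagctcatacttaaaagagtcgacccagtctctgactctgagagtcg
Bst2: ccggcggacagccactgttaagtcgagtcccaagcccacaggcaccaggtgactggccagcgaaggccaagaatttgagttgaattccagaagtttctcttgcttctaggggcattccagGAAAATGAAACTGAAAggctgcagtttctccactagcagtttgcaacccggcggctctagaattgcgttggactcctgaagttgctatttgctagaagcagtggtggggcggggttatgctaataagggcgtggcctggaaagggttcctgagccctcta
Irf7: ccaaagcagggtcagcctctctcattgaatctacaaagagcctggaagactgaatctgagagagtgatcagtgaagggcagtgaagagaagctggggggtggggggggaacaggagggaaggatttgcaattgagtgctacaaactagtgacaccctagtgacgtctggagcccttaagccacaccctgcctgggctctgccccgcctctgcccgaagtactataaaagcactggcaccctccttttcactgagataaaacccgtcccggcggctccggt

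The Ifitm3 window (chromosome 7, 141010715 to 141010994) held matches at positions 3 and 20 after the start. The Isg15 window (chromosome 4, 156200789 to 156201068) held overlapping matches at -78, -72 and -66, and the Bst2 window (chromosome 8, 71537443 to 71537722) overlapping matches at -130 and -124. The Irf7 window held none. In the uncut windows of 300 bases, from which the printed ones were shortened, 1131 of 32851 promoters held the motif (3.44%), or 1079 of 27025 genes (3.99%). Of the 25 interferon-list genes with a window 16 held it (64.0%), against 1 of 30 homeostatic genes (3.33%). A match describes the letters only, and no binding was measured.

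Ifitm3 was at 72.2 and 78.7 CPM in PT2385+ICB, 213 and 173 in PT2385, 285 and 315 in ICB and 352 in untreated pools in members without a monocyte-gene UMI. Both PT2385+ICB pools were below all other pools, with log2 fold changes of -1.98 ± 0.123 (adjusted p = 3.31e-06) against ICB and -1.32 ± 0.137 (adjusted p = 0.00233) against PT2385. In all members they were -1.83 ± 0.170 (adjusted p = 0.000894) and -1.89 ± 0.171 (adjusted p = 0.00104). Isg15 in the same cells was at 27.4 and 27.7 CPM in PT2385+ICB, 54.4 and 57.9 in PT2385, 82.1 and 90.9 in ICB and 97.0 in untreated pools. It fell with a log2 fold change of -1.64 ± 0.127 (adjusted p = 1.12e-05) against ICB and -1.04 ± 0.165 (adjusted p = 0.0127) against PT2385, and the PT2385 pools lay between. In all members the Isg15 changes were -1.96 ± 0.279 (adjusted p = 0.00420) and -1.76 ± 0.286 (adjusted p = 0.00732), and both calls were lost without PT2385+ICB pool 2 (-1.82 and -1.63). In the smallest set, with at least 10 marker UMIs and no monocyte-gene UMI, the call against PT2385 was lost for Isg15 (-0.85 ± 0.235, adjusted p = 0.146) and for Irf7 (-1.35 ± 0.333, adjusted p = 0.103). Irf7 was at 11.6 and 16.4 CPM in PT2385+ICB, 23.8 and 50.9 in PT2385, 77.8 and 58.5 in ICB and 93.1 in untreated pools in those cells. Its log2 fold change was -2.25 ± 0.230 (adjusted p = 8.84e-05) against ICB and -1.51 ± 0.308 (adjusted p = 0.0454) against PT2385, and -2.15 ± 0.141 (adjusted p = 0.000306) against ICB in all members. Oasl2, an oligoadenylate synthetase-like protein, was at 27.4 and 26.9 CPM in PT2385+ICB, 109 and 102 in PT2385, 94.6 and 92.4 in ICB and 170.0 in untreated pools in all members. It fell with a log2 fold change of -1.79 ± 0.101 (adjusted p = 0.000233) against ICB and -1.96 ± 0.105 (adjusted p = 0.000219) against PT2385. In members with at least 10 marker UMIs and no monocyte-gene UMI, Oasl2 still fell with a log2 fold change of -1.18 ± 0.229 (adjusted p = 0.0146) and -1.50 ± 0.286 (adjusted p = 0.0279). Bst2 gave -1.26 against ICB in all members, -1.05 without a monocyte-gene UMI and -0.53 with at least 10 marker UMIs besides (adjusted p = 0.00182, 0.000142 and 0.0435). With cells thinned to 4000 UMIs the calls of Isg15 (-0.69) and Bst2 (-0.55) against ICB were lost. Ifitm3, Isg15 and Bst2 were named after their values were seen.

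**Figure D4:**
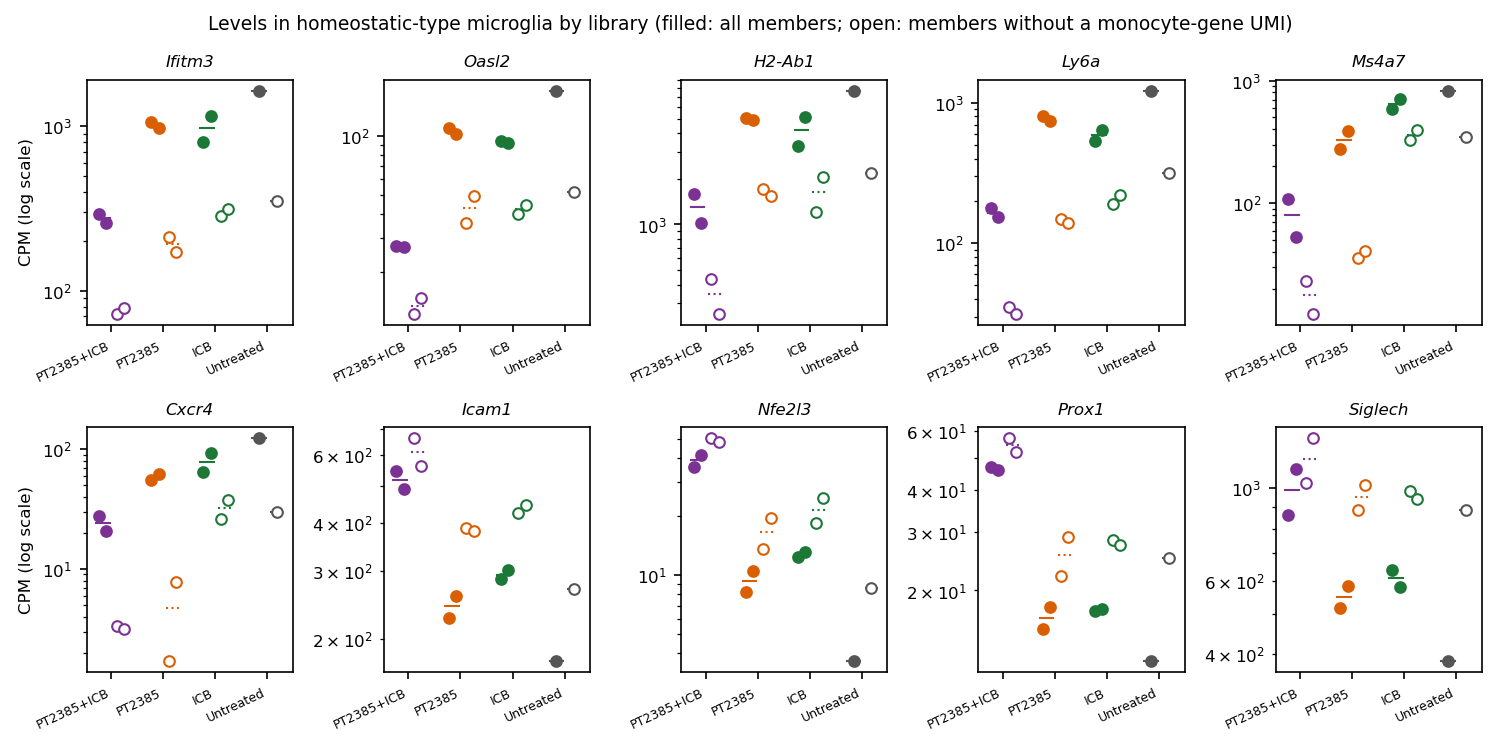
Levels of 10 genes in CPM (log axis) by library in all members (filled) and in members without a monocyte-gene UMI (open), with group means as lines. The PT2385+ICB pools are lowest for Ifitm3 (open points 72.2 and 78.7 CPM), Oasl2, H2-Ab1, Ly6a and Ms4a7, and for the filled points of Cxcr4, and highest for Icam1 (filled points 546 and 489.6 CPM), Nfe2l3 and Prox1, and the open points of Siglech lie between 886 and 1318 CPM.

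Most antigen-presentation genes of class II fell in the PT2385+ICB pools. Of 14 class II genes, 12 fell against PT2385 pools (median log2 fold change -1.40), 8 against ICB pools (median -1.14) and 10 against the untreated pool (median -1.41), and none rose. Without monocyte-gene UMIs the counts were 9, 7 and 5, and with at least 10 marker UMIs besides 9, 5 and 4. H2-Ab1, the class II beta chain, was at 1582 and 1026 CPM in PT2385+ICB, 5084 and 4921 in PT2385, 3312 and 5105 in ICB and 7626 in untreated pools. The PT2385+ICB pools were below all others, with a log2 fold change of -1.69 ± 0.246 (adjusted p = 0.00461) against ICB and -2.55 ± 0.282 (adjusted p = 0.000904) against untreated. With at least 10 marker UMIs and no monocyte-gene UMI the H2-Ab1 changes were -1.51 ± 0.165 (adjusted p = 0.000136) against ICB and -1.99 ± 0.195 (adjusted p = 9.03e-05) against untreated. Ciita, the transactivator of class II genes, fell with a log2 fold change of -2.27 ± 0.228 (adjusted p = 0.00147) against PT2385 and -1.68 ± 0.219 (adjusted p = 0.00294) against ICB in all members, and with -2.52 ± 0.295 (adjusted p = 0.00309) and -1.77 ± 0.257 (adjusted p = 0.00147) in those without a monocyte-gene UMI.

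Interferon gamma-inducible GTPases and regulators fell for 18 of 24 tested genes against PT2385 pools and for 10 against ICB pools, and class I presentation genes for 16 of 22 and 10. Without monocyte-gene UMIs these became 7 of 22 and 6, and 6 of 22 and 3. Gm4951, an interferon-inducible GTPase, was at 39.8 and 36.8 CPM in PT2385+ICB, 144 and 138 in PT2385, 66.3 and 78.8 in ICB and 90.7 in untreated pools. It was highest in the PT2385 pools, and the fall against them was -1.88 ± 0.123 (adjusted p = 0.000463) in all members and -1.32 ± 0.266 (adjusted p = 0.0374) with at least 10 marker UMIs and no monocyte-gene UMI. Psmb8, an immunoproteasome subunit, was at 268 and 235 CPM in PT2385+ICB, 659 and 601 in PT2385, 415 and 559.5 in ICB and 662 in untreated pools. Its change against PT2385 was -1.33 ± 0.154 (adjusted p = 0.00242) in all members and -0.74 ± 0.121 (adjusted p = 0.0116) in the smallest set of members.

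Most border-macrophage genes fell in the PT2385-treated pools. Of 8 border-associated macrophage genes tested, 7 fell with PT2385 over all libraries (median log2 fold change -1.70 beside 0.04 over all genes), and 6 in members without a monocyte-gene UMI. Ms4a7, a membrane protein of macrophages that homeostatic microglia lack, was at 23.2 and 12.6 CPM in PT2385+ICB, 35.7 and 40.7 in PT2385, 328 and 396 in ICB and 347 in untreated pools in members without a monocyte-gene UMI. All 4 PT2385-treated pools lay below the 3 others, with a log2 fold change of -4.03 ± 0.239 (adjusted p = 7.02e-06), and with -2.38 ± 0.381 (adjusted p = 0.00636) in all members. Mrc1, the mannose receptor, was at 31.2 and 29.4 CPM in PT2385+ICB, 13.1 and 33.6 in PT2385, 239 and 94.2 in ICB and 140.4 in untreated pools. It fell with a log2 fold change of -2.47 ± 0.326 (adjusted p = 0.00376). Of 21 scavenger and uptake receptors tested, 10 fell and 2 rose with PT2385 in all members, and 6 fell without monocyte-gene UMIs. Msr1, a scavenger receptor, fell with a log2 fold change of -2.04 ± 0.278 (adjusted p = 0.00398) in all members and with -3.24 ± 0.298 (adjusted p = 5.23e-05) without monocyte-gene UMIs. These genes are markers of cells other than parenchymal microglia. The share of members with a monocyte-gene UMI overlapped between the PT2385 pools (46.0% and 39.8%) and the ICB pools (36.2% and 44.4%). A smaller number of macrophages among the members and a change within microglia cannot be told apart.

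Sterol and lipid genes fell with PT2385 for 14 of 25 tested and rose for 1 in all members, and fell for 9 of 24 without monocyte-gene UMIs; chemokine genes fell for 10 of 17 and 7 of 16. Cxcl16, a chemokine and scavenger of oxidised lipid, fell with a log2 fold change of -1.28 ± 0.186 (adjusted p = 0.00475), and Cd63, a lysosomal tetraspanin of disease-associated microglia, with a log2 fold change of -0.70 ± 0.0987 (adjusted p = 0.00441). With cells thinned to 4000 UMIs both calls were lost, at -0.64 for Cxcl16 and -0.22 for Cd63. Cxcr4, the receptor of Cxcl12, was at 28.0 and 20.6 CPM in PT2385+ICB, 55.8 and 62.6 in PT2385, 64.2 and 92.3 in ICB and 123 in untreated pools. It fell with a log2 fold change of -1.44 ± 0.186 (adjusted p = 0.00366). Of 27 disease-associated microglia genes 8 fell and 1 rose with PT2385 in all members, and 14 fell without monocyte-gene UMIs. In PT2385+ICB against ICB pools 16 fell, among them Axl, a receptor for dying cells, at 39.6 and 28.9 CPM in the PT2385+ICB pools, against 121 and 118 CPM in the ICB pools, with a log2 fold change of -1.81 ± 0.178 (adjusted p = 0.00105). The Axl call was lost with cells thinned to 4000 UMIs (-0.74) and held without monocyte-gene UMIs, at -1.50 ± 0.160 (adjusted p = 0.000136). Lgals3, encoding galectin-3, was at 13.1 and 17.2 CPM in the PT2385+ICB pools, against 254 and 190.1 CPM in the ICB pools in members without a monocyte-gene UMI and fell with a log2 fold change of -3.85 ± 0.345 (adjusted p = 3.32e-05), against -2.13 ± 0.259 (adjusted p = 0.00223) in all members. With at least 10 marker UMIs besides, Lgals3 was at 9.87 to 144 CPM over the pools, and in marker-free barcodes at 647 to 1616 CPM. Members without a monocyte-gene UMI still differed in summed border-macrophage markers, at 60.7 and 54.0 CPM in PT2385+ICB and 602 and 604 in ICB pools. The part of macrophage RNA in the Lgals3 change was not tested.

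Some genes rose with PT2385 in the fit over all 7 libraries with ICB as a term. Tal1, a haematopoietic transcription factor, was at 68.2 and 61.9 CPM in PT2385+ICB, 30.1 and 30.7 in PT2385, 36.0 and 24.4 in ICB and 12.5 in untreated pools. It rose by 1.15 ± 0.141 (adjusted p = 0.00333) with PT2385, 0.68 ± 0.153 (adjusted p = 0.0424) in members with at least 10 marker UMIs and no monocyte-gene UMI. Zfp69, a zinc finger gene, was at 36.3 and 41.8 CPM in PT2385+ICB, 17.0 and 22.8 in PT2385, 17.3 and 19.1 in ICB and 8.84 in untreated pools. Zfp69 rose by 1.14 ± 0.125 (adjusted p = 0.00278), and by 0.73 ± 0.155 (adjusted p = 0.0289) in those members. For both genes the PT2385+ICB pools were highest and the untreated pool lowest, and the PT2385 pools overlapped the ICB pools. Il1a, the alarmin cytokine interleukin-1 alpha, was at 318 and 275 CPM in PT2385+ICB, 214 and 185 in PT2385, 146 and 142 in ICB and 114 in untreated pools and rose by 0.95 ± 0.102 (adjusted p = 0.00271). Il1b, interleukin-1 beta, was at 306 and 251 CPM in PT2385+ICB, 776 and 790.2 in PT2385, 610.3 and 1315 in ICB and 2014 in untreated pools; it fell with a log2 fold change of -1.62 ± 0.236 (adjusted p = 0.00475). Without monocyte-gene UMIs the changes were 0.70 ± 0.117 (adjusted p = 0.00410) for Il1a and -1.34 ± 0.195 (adjusted p = 0.00145) for Il1b, so the pair moved in opposite directions in both sets. With cells thinned to 4000 UMIs the calls of Il1a (0.48) and Zfp69 (0.72) were lost.

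Icam1 and Nfe2l3 were called higher in all members in each of the 5 comparisons; Nfe2l3 was named after its values were seen. Icam1, an adhesion molecule for leukocytes, was at 546 and 489.6 CPM in PT2385+ICB, 227 and 259 in PT2385, 286 and 302 in ICB and 175 in untreated pools. Both PT2385+ICB pools were above every other pool, by 1.56 ± 0.143 (adjusted p = 0.000449) against untreated, 1.09 ± 0.111 (adjusted p = 0.00149) against PT2385 and 0.82 ± 0.108 (adjusted p = 0.00311) against ICB. In members with at least 10 marker UMIs and no monocyte-gene UMI it gave 0.65 ± 0.0928 (adjusted p = 0.0117) for ICB, 0.43 ± 0.0898 (adjusted p = 0.0262) for PT2385 and 0.38 ± 0.108 (adjusted p = 0.125) for PT2385+ICB against ICB. Nfe2l3, a transcription factor of the NRF family, was at 36.0 and 41.4 CPM in PT2385+ICB, 8.21 and 10.5 in PT2385, 12.4 and 13.2 in ICB and 3.65 in untreated pools. It rose by 1.60 ± 0.144 (adjusted p = 0.000818) against ICB and 2.01 ± 0.177 (adjusted p = 0.00104) against PT2385. Prox1, a homeobox transcription factor, was at 47.0 and 46.0 CPM in PT2385+ICB, 15.3 and 17.8 in PT2385, 17.4 and 17.7 in ICB and 12.3 in untreated pools. Prox1 rose by 1.41 ± 0.112 (adjusted p = 0.000538) against ICB and 1.46 ± 0.131 (adjusted p = 0.00104) against PT2385, and by 0.80 ± 0.145 (adjusted p = 0.00884) and 0.96 ± 0.200 (adjusted p = 0.0462) in the smallest set. With cells thinned to 4000 UMIs the calls were lost for Icam1 with PT2385 (0.43) and against ICB (0.45) and for Prox1 against PT2385 (0.84).

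Many homeostatic genes outside the rule rose when all members were taken, and few passed in the members free of monocyte genes. Of 41 genes, 21 rose and 2 fell in PT2385+ICB against ICB pools (median log2 fold change 0.47), 26 and 2 against PT2385 pools (median 0.53), 21 and 1 with PT2385 and 28 and 1 with ICB. Without monocyte-gene UMIs none passed against ICB or PT2385 pools (medians 0.16 and 0.08) or with ICB, and 1 passed with PT2385. At an unadjusted p under 0.05 in the same edgeR fits there were 11 of 41 against ICB pools, 13 against PT2385 pools and 12 with ICB. Over all 11629 genes tested in that set, 1881, 1271 and 1236 passed at that level, in the same order. The summed level of the 41 genes in that set was highest in the untreated pool, at 81987 CPM. It was 73186 and 81141 CPM in the PT2385+ICB pools. Siglech was at 865 and 1113 CPM in PT2385+ICB, 516 and 581 in PT2385, 638 and 578 in ICB and 385 in untreated pools in all members, and rose by 0.70 ± 0.138 (adjusted p = 0.0134) against ICB and 0.85 ± 0.140 (adjusted p = 0.00767) against PT2385. These calls were lost without ICB pool 2 (0.62) or PT2385+ICB pool 2 (0.51) against ICB, and without PT2385 pool 1 (0.76) against PT2385. Without monocyte-gene UMIs Siglech was at 886 to 1318 CPM over the 7 pools, with 0.29 ± 0.129 (adjusted p = 0.303) against ICB and 0.29 ± 0.132 (adjusted p = 0.447) against PT2385. Adgrg1, an adhesion receptor of parenchymal microglia, was at 154 and 179 CPM in PT2385+ICB, 102 and 106 in PT2385, 112 and 102 in ICB and 74.0 in untreated pools in all members. Without monocyte-gene UMIs it was at 189 and 209 CPM in PT2385+ICB, 185 and 187 in PT2385, 175 and 165 in ICB and 175 in untreated pools. Its change against ICB pools was 0.64 ± 0.111 (adjusted p = 0.00864) in all members, not called without PT2385+ICB pool 2 (0.52), and 0.23 ± 0.106 (adjusted p = 0.325) in the subset. With cells thinned to 4000 UMIs Siglech was at 0.21 against ICB and 0.44 against PT2385 and Adgrg1 at 0.17 against ICB on the log2 scale, none of them called. The PT2385+ICB pools, highest in these genes, were also those with the highest marker sums given above.

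Few genes were called with ICB in the members without a monocyte-gene UMI, as given above. Interferon genes fell with ICB for 31 of 32 tested in all members (median log2 fold change -1.16) and for 0 without monocyte-gene UMIs (median -0.68). At an unadjusted p under 0.05 with edgeR 18 of 32 passed there, beside 1236 of all 11629 genes tested. Ly6a, the interferon-inducible surface antigen Sca-1, was at 35.4 and 31.4 CPM in PT2385+ICB, 189.9 and 219 in ICB, 148 and 138 in PT2385 and 318 in untreated pools in members without a monocyte-gene UMI, with a log2 fold change of -1.43 ± 0.235 (adjusted p = 0.0309) for ICB and -1.78 ± 0.228 (adjusted p = 0.00662) in all members. Pik3r3, a regulatory subunit of PI3-kinase, was at 37.3 and 36.5 CPM in PT2385+ICB, 24.0 and 26.6 in ICB, 7.66 and 17.0 in PT2385 and 8.45 in untreated pools. It rose by 1.52 ± 0.191 (adjusted p = 0.00654) with ICB, and by 1.18 ± 0.201 (adjusted p = 0.0257) in members with at least 10 marker UMIs and no monocyte-gene UMI. Tfrc, the transferrin receptor, rose by 0.97 ± 0.227 (adjusted p = 0.0237) in all members, gave 1.44 ± 0.262 (adjusted p = 0.0644) without monocyte-gene UMIs, and rose by 1.33 ± 0.264 (adjusted p = 0.0489) with at least 10 marker UMIs besides. In all members it was not called without PT2385 pool 1 or 2 (both 0.84), PT2385+ICB pool 1 (0.86) or PT2385+ICB pool 2 (0.98). Icam1 rose by 0.95 ± 0.106 (adjusted p = 0.00654).

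The drug's target and its partners are given next. Epas1, which encodes HIF-2α, was at 0 to 3.51 CPM in members and was not called with PT2385 (0.68 ± 0.712, adjusted p = 0.546). Arnt, the shared partner subunit, was at 84.3 and 79.2 CPM in PT2385+ICB, 76.6 and 88.6 in PT2385, 88.0 and 96.3 in ICB and 131 in untreated pools (-0.36 ± 0.117, adjusted p = 0.0652 with PT2385). Hif1a, encoding HIF-1α, was at 143 and 128 CPM in PT2385+ICB, 331 and 289 in PT2385, 133 and 284 in ICB and 294 in untreated pools. Hif1a fell with a log2 fold change of -1.19 ± 0.299 (adjusted p = 0.0326) in PT2385+ICB against PT2385 pools in all members, and gave -0.41 ± 0.150 (adjusted p = 0.316) without monocyte-gene UMIs; the call was lost without PT2385 pool 1 (-1.10) or 2 (-1.29), PT2385+ICB pool 1 (-1.27) or 2 (-1.11), or with cells thinned to 4000 UMIs (-0.64). Of 34 hypoxia and glycolysis genes tested, 8 fell and 1 rose with PT2385, 4 of 32 fell without monocyte-gene UMIs and none passed with at least 10 marker UMIs besides. At an unadjusted p under 0.05 with edgeR there were 7 of 30 in that set, beside 1052 of all 11200 genes tested. Of 22 genes associated with HIF-2 in other cells, 7 fell and 2 rose, and 8 of 20 fell without monocyte-gene UMIs. Those included Mmp14, a membrane metalloproteinase, at 59.8 and 54.2 CPM in PT2385+ICB, 142 and 170.3 in PT2385, 178 and 192 in ICB and 267 in untreated pools, with -1.34 ± 0.182 (adjusted p = 0.00388). Another was Ccnd1, the gene of cyclin D1 of the cell cycle, at 64.8 and 65.7 CPM in PT2385+ICB, 62.4 and 75.5 in PT2385, 146 and 109.8 in ICB and 129.9 in untreated pools, with -0.95 ± 0.117 (adjusted p = 0.00333). The Mmp14 call was lost with cells thinned to 4000 UMIs (-0.48). Without monocyte-gene UMIs Mmp14 gave -1.24 ± 0.145 (adjusted p = 0.000279) and Ccnd1 -0.66 ± 0.133 (adjusted p = 0.0135).

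Among checkpoint genes, Cd274, encoding PD-L1, was at 60.2 and 71.1 CPM in PT2385+ICB, 380.3 and 272 in PT2385, 124 and 184 in ICB and 288 in untreated pools. It was highest in a PT2385 pool and fell against PT2385 pools with -2.30 ± 0.226 (adjusted p = 0.00131) in all members and -1.57 ± 0.224 (adjusted p = 0.00689) without monocyte-gene UMIs, and gave -1.09 ± 0.268 (adjusted p = 0.103) with at least 10 marker UMIs besides. Havcr2, which encodes TIM-3, the target of an ICB antibody and a resident microglial gene, was at 165 to 199 CPM over the pools, and Lgals9, encoding its ligand galectin-9, at 155 to 196 CPM. Neither was called against ICB (-0.01 ± 0.103, adjusted p = 0.951, and -0.16 ± 0.104, adjusted p = 0.317) or against PT2385 (-0.15 ± 0.105, adjusted p = 0.368, and -0.18 ± 0.106, adjusted p = 0.295). Pdcd1, encoding PD-1, was too low to be tested.

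The interaction of PT2385 and ICB, which asks whether the effect of the combination differs from the sum of both on the log2 scale, gave 0 calls of 13588 (0%) with edgeR. There were 1389 genes at an unadjusted p under 0.05 and 110 calls with DESeq2. Its value rests on the single untreated pool, and 88 genes were called without ICB pool 1, 1 without ICB pool 2 and 1 without PT2385+ICB pool 2. The 5 genes of at least 20 CPM with the smallest p all had values below 0, namely Tgfbi at -1.47 ± 0.146 (adjusted p = 0.0698), Slfn1 at -1.74 ± 0.176 (adjusted p = 0.0698), Gm4951 at -1.55 ± 0.191 (adjusted p = 0.123), Lilrb4a at -1.58 ± 0.204 (adjusted p = 0.123) and Capg at -1.39 ± 0.182 (adjusted p = 0.123). Without ICB pool 1 all 5 of these genes passed, with values from -1.74 for Slfn1 to -1.46 for Capg. In members without a monocyte-gene UMI 6 of 11629 genes passed (0.0516%), 3 above and 3 below 0. Fabp5, a fatty acid-binding protein, was below 0 at -3.68 ± 0.400 (adjusted p = 0.0113); its levels there were 21.5 and 17.5 CPM in PT2385+ICB, 78.2 and 128 in PT2385, 188 and 289 in ICB and 105 in untreated pools. In all members the Fabp5 value was -2.24 ± 0.342 (adjusted p = 0.123). Without monocyte-gene UMIs the PT2385+ICB pools were the lowest, the ICB pools the highest, and the untreated pool lay between the PT2385 pools.

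Reactive microglia of the same libraries are given for comparison, without a test since the rule set them apart. Their interferon list summed to 4101 and 4025 CPM in PT2385+ICB, 6058 and 6573 in PT2385, 7517 and 5893 in ICB and 8061 in untreated pools, above the members of the same library in all 7 libraries. H2-Ab1 was at 2923 and 3453 CPM in PT2385+ICB, 6143 and 6325 in PT2385, 4465 and 4613 in ICB and 8529 in untreated pools in reactive cells. Icam1 was at 413 and 358 CPM in PT2385+ICB, 199.7 and 201 in PT2385, 153 and 209 in ICB and 173 in untreated pools. The PT2385+ICB pools were again the lowest for H2-Ab1 and the highest for Icam1.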

How the data were processed

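The 7 libraries (10x Genomics, 3′ chemistry), each a pool of 2 mice, were deposited as filtered matrices of UMI counts per gene and barcode, which the authors made with Cell Ranger (version 2.2.0 per the submitters' processing notes, 7.0.0 per the file headers) on GRCm39; the notes also name Seurat 5. The counts are whole and not normalized. Genes numbered 32285, and rows of the 38 symbols used more than once were kept apart by their gene identifiers.

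From these counts, barcodes under 300 genes or above 10% mitochondrial UMIs were removed, and members were chosen by the marker rule. Scrublet (in scanpy 1.11.5) marked 11 doublets at its automatic threshold, too few to have worked, so the top 0.8% per 1000 barcodes by its score were marked for the alternative without doublets (2059 of the kept barcodes, 197 of the members); they stayed in the main result. Member counts were summed per library and tested with edgeR 4.0.16 (quasi-likelihood, TMM, filterByExpr, Benjamini-Hochberg, 0.05) in R 4.3.3. PT2385 and ICB were tested over all 7 libraries with the other treatment as a term (4 residual degrees of freedom), and pairs of groups and the interaction with 1 mean per group (3 residual degrees of freedom), where the untreated pool is assumed to vary like the others. Standard errors are the fold change over the square root of F. The fits were also run on simulated counts in which all libraries shared the same composition apart from the changed genes. The pools here differ in composition, so that run does not test how such differences affect the calls. Shares were compared by two-sided exact permutation tests over libraries (scipy 1.17.1).

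Alternatives were DESeq2 1.42.0, its size factors, no filter on low counts, a stricter barcode filter, 3 or 10 marker UMIs, no doublets, no monocyte-gene UMI, Cxcl13- and C4b-positive cells kept, thinning to 4000 UMIs and leaving out each library; 10 marker UMIs together with no monocyte-gene UMI was added after seeing the data. Named genes are the 10 largest rises and falls past the threshold at a mean of at least 20 CPM, up to 4 per gene list by smallest p, and genes related to the drugs; others are said to be named after their values were seen. The text gives those the results turn on. The members and gene lists were chosen with earlier results of these data known.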

Additional observations from a re-analysis of the deposited data

How the results depend on the processing

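Numbers of called genes moved by over 1.5 times with the choice of cells, with thinning and with single libraries. Without monocyte-gene UMIs the calls were 463 for PT2385, 19 for ICB, 491 for PT2385+ICB against ICB, 103 against PT2385, 242 against untreated and 6 for the interaction. With at least 10 marker UMIs they were 655, 1259, 758, 1179 and 1768 for the first 5 of these in the same order, and with both conditions together 151, 38, 191, 78, 71 and 15. Thinning to 4000 UMIs, which by construction lowers depth and chooses the members again, gave 108, 392, 119, 277 and 367 for the first 5. Keeping Cxcl13- and C4b-positive cells gave 3557 for ICB and 3741 for PT2385+ICB against PT2385. With no filter on low counts there were 3340 for PT2385 and 542 for the interaction, and DESeq2 called 110 for the interaction. Leaving out 1 library gave 627 to 2390 for PT2385, 654 to 2540 for ICB, 441 to 2390 for PT2385+ICB against ICB, 540 to 2466 against PT2385, 1853 to 4019 against untreated and 0 to 88 for the interaction. The causes were not tested.

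Leaving out 1 library gave a share difference of -0.920 to 6.81 percentage points for PT2385, 8.03 to 13.7 for ICB, 5.02 to 15.2 for PT2385+ICB against ICB and 11.7 to 21.9 against PT2385. The ICB difference was past the threshold, before adjustment, only on the log2 scale (1.61). The reactive share in PT2385+ICB against ICB pools changed sign with at least 3 marker UMIs (0.738), at least 10 (0.669), a stricter barcode filter (0.306) and log2 shares (0.0634), and ranged from -8.57 to 8.30 with 1 library left out. Of 58 results on single genes, 44 kept direction and call in every fit without 1 library and 30 under every other alternative. Of the 46 called ones, 22 shrank by over 1.5 times and 15 lost the call with thinning, against 8 and 5 without monocyte-gene UMIs (4 grew) and 25 and 8 with both cell conditions (3 grew). Havcr2 against ICB changed sign without doublets (0.0243), without monocyte-gene UMIs (0.0215), thinned (0.0185) and with both cell conditions (0.0460), and without ICB pool 1 (0.0749) or PT2385+ICB pool 1 (0.0298), in a range of -0.107 to 0.0749 with 1 library left out, and Epas1 with 1 mean per group (-0.211), all without a call.

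No paired analysis was possible because the labels give no replicate numbers shared between groups. Pools of 187 to 1452 members limit the depth for genes of few UMIs, and comparisons with the untreated pool have no replicate there.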
